A study of Mus musculus with 8 samples.

Results

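The genes described here are 3 neurotrophic ligands, Bdnf, Ntf3 and Gdnf, and 6 receptors, Ntrk2, Ntrk3, Ngfr, Ret, Gfra1 and Gfra2. They were taken by symbol from a table of 32531 gene symbols counted in mouse islet RNA. All 9 were in the table, and 8 of them were among the 15082 genes with enough counts to be tested (10 counts or more in 4 or more of the 8 libraries). Gdnf was not. The question was whether these genes differ between islets of control mice and islets in which β cells carry active Notch.

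Islets came from 4 Control mice, labelled RIP-Cre+, Rosa26-rtTA+ and tetO_NICD-, and from 4 β-tetO-NICD mice, labelled RIP-Cre+, Rosa26-rtTA+ and tetO_NICD+. Both groups received doxycycline (Dox) in the drinking water for 8 weeks and had a mixed background of C57BL/6J, 129X1/SvJ and BALB/c, so Control mice shared Cre, the Dox-dependent activator and Dox itself. The ages of these mice are not in the labels. Cre was driven by the rat insulin 2 promoter, which limits the model to cells that had used that promoter, and the Rosa26 allele also carries EGFP. NICD, the intracellular domain of Notch1, is the part of the receptor that enters the nucleus. Whole islets were sequenced, so the RNA also held that of α and δ cells, vessels, nerve fibres and glia. In such bulk samples, fewer cells of a type and less RNA per cell cannot be told apart.

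The libraries held between 21701223 and 26413146 counts. Notch1, whose counts do not separate the endogenous gene from the transgene, had 1051 to 1562 counts in Control libraries and 11388 to 36628 counts in β-tetO-NICD libraries, so every label matched its group. The study's methods state that islets of males were used for gene expression, yet 5 libraries held at most 1 count of the Y-linked gene Eif2s3y (Control 1 and 3, β-tetO-NICD 1, 2 and 4) and the other 3 held 1300 to 1527. Libraries also differed in a trend with transcript length: the Spearman correlation of a library's deviation from each gene's mean with the longest transcript's length was 0.418 to 0.497 for 3 Control libraries (1, 2 and 4) and 0.446 for β-tetO-NICD 1, but -0.174 in Control 3 and -0.521 to -0.360 in the other β-tetO-NICD libraries. For Bdnf, Ret, Ntrk3 and Gfra3, values are given on both sides of this split.

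Neurotrophins are secreted proteins that keep neurons alive and guide their axons. Brain-derived neurotrophic factor (BDNF) signals through TrkB, encoded by Ntrk2, and neurotrophin-3 through TrkC, encoded by Ntrk3, and both also bind the p75 receptor encoded by Ngfr. Glial cell line-derived neurotrophic factor (GDNF) first binds GFRα1, a coreceptor anchored to the membrane by a lipid, and the pair then activates the receptor tyrosine kinase RET, whereas GFRα2 is the preferred coreceptor of neurturin. In the pancreas, sympathetic and parasympathetic fibres and their Schwann cells use these receptors.

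Notch acts on genes through RBPJ, a DNA-binding protein whose core site is TGGGAA. On the other strand this core reads as TTCCCA. RefSeq start sites on GRCm38.p6 gave 14 windows of 250 bases before a start for 6 of the 9 genes, 7 of them for Bdnf, 2 for Ntf3, 2 for Gdnf and 1 each for Ntrk2, Ngfr and Gfra1. No window was used for Ntrk3, Gfra2 and Ret. The core was in 3 of these 14 windows, on either strand, against 21.6% of 32851 windows of the same length across the genome. The longer GTGGGAA, which contains that core, was in 0 of 14 against 5.42% of all windows. Of the E, C and N box letters bound by Hes and Hey proteins, CACGTG was in 1 Ntf3 window (6.02% of all windows), CACGCG in the Ntrk2 window (7.62%) and CACGAG in 1 Bdnf window (5.37%). A match describes letters only and is no evidence of binding. The core was in 1 of 7 Bdnf windows, 2 of 2 Ntf3 windows and 0 of 2 Gdnf windows. The 3 windows that hold it are shown 5′ to 3′ on the strand of the gene, with the core in capitals. They lie at chr2:109692777-109693026 (plus strand, core 196 bases before the start), chr6:126166745-126166994 (minus strand, 206 bases) and chr6:126164961-126165210 (minus strand, 161 bases).
Bdnf: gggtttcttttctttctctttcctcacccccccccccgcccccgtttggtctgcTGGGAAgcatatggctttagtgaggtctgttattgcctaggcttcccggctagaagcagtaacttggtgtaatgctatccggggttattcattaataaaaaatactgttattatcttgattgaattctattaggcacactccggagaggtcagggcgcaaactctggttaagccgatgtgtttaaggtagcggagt
Ntf3, first window: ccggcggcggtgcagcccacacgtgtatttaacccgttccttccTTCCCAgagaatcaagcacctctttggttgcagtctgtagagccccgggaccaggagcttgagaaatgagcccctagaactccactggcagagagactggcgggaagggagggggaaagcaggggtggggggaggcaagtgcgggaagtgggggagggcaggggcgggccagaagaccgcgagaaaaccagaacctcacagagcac
Ntf3, second window: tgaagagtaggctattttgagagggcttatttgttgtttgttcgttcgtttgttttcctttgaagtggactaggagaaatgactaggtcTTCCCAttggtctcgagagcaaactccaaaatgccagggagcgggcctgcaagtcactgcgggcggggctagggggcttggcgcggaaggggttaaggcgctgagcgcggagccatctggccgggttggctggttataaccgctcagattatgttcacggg

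Across all tested genes, edgeR's quasi-likelihood test called 1020 genes at an adjusted p under 0.05, which is 6.76% of those tested, of which 632 (4.19%) had their higher level in β-tetO-NICD islets and 388 (2.57%) in Control islets. None of the 8 tested neurotrophic genes was called by edgeR. At an unadjusted p under 0.05 there were 4 of 8, Bdnf and Ntf3 with higher and Ntrk3 and Ret with lower levels in β-tetO-NICD islets, against 31.6% of all tested genes. limma-voom called 1 of the 8, Bdnf, against 7.18% of all tested genes, and DESeq2 called 2, Bdnf and Ret, against 18.2%. The groups did not overlap for 3 of the 8 (Bdnf, Ntf3 and Ntrk3), where 16.1% of all tested genes had groups that did not overlap. On CPM from total counts, without TMM, this held for 2 of the 8 (Ntf3 and Ntrk3) against 13.5% of all tested genes. The median log2 fold change was 0.087 over the 8 genes, with 4 positive and 4 negative values, and 0.000714 over all tested genes. Values below are CPM, counts scaled by the TMM-adjusted size of the library, with the mean ± SD of n = 4, and fold changes, standard errors, 95% intervals and adjusted p values are from edgeR.

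**Figure D1:**
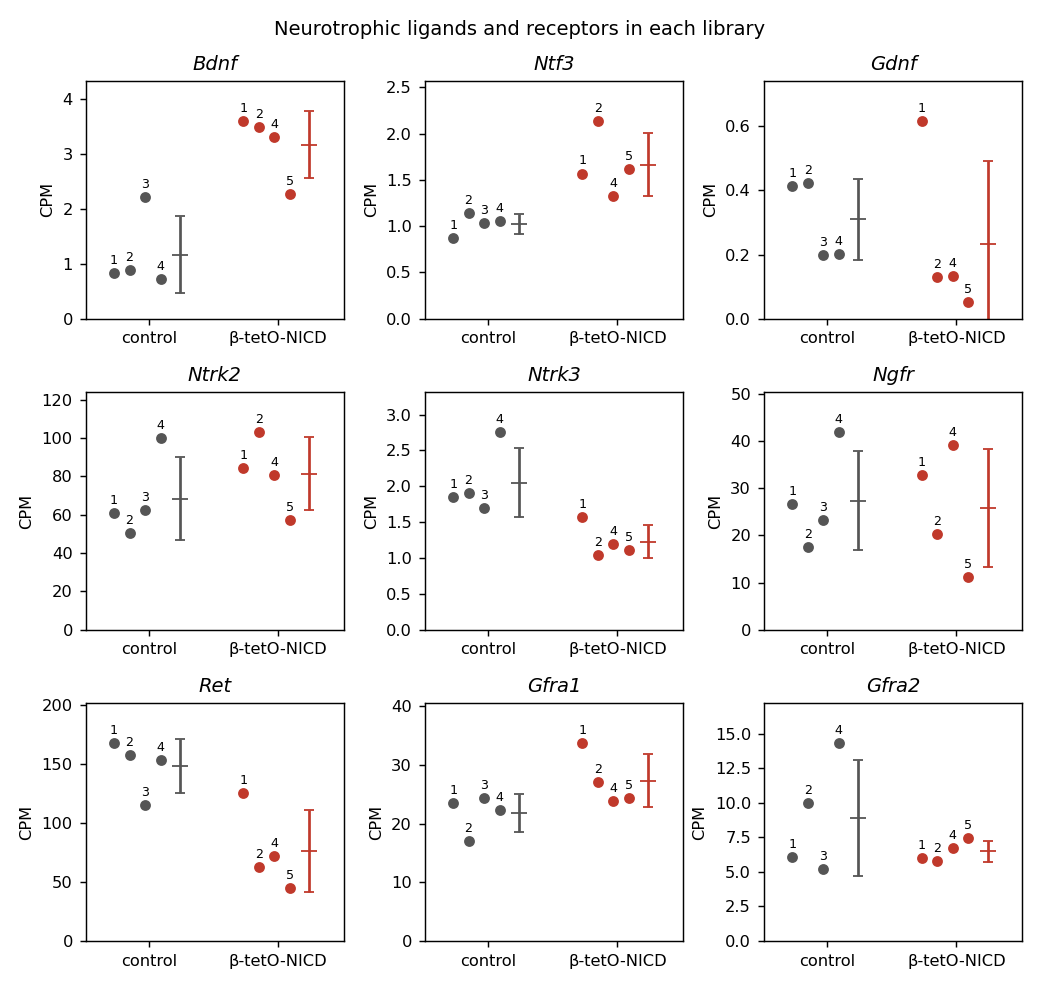
Level of each gene in every library, in CPM on a linear axis starting at 0, with points numbered by library and the mean ± SD of each group of 4 (the lower SD bar of Gdnf in β-tetO-NICD islets is drawn to 0). Bdnf was at 0.731 to 2.22 CPM in Control and 2.27 to 3.61 CPM in β-tetO-NICD libraries, and Ret at 115.5 to 167.9 and 45.0 to 125.5 CPM.

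Bdnf encodes the TrkB ligand and lies at chr2:109674700-109727007 on the plus strand (GRCm38, GENCODE M21), with 11 annotated transcripts whose separate promoters the counts per gene do not resolve. Control libraries 1 to 4 held 18, 21, 56 and 18 Bdnf counts. The β-tetO-NICD libraries, numbered 1, 2, 4 and 5, held 76, 80, 100 and 45. In CPM these were 0.830, 0.887, 2.22 and 0.731 against 3.61, 3.49, 3.32 and 2.27. On this scale the groups did not overlap, but Control 3 reached almost the lowest β-tetO-NICD library while the other Control libraries were close together. On CPM from total counts Control 3, at 2.16, was above β-tetO-NICD 5, at 2.02, so the groups overlapped, as they did per length (0.808 and 0.693). The mean was 1.17 ± 0.703 CPM in Control and 3.17 ± 0.616 CPM in β-tetO-NICD islets (SD, n = 4), a log2 fold change of 1.44 (SE 0.39, 95% interval 0.57 to 2.30) that missed the threshold (unadjusted p = 0.00419, edgeR adjusted p = 0.0545). Without Control 3 the value was 1.96 with an adjusted p of 0.0112, and without β-tetO-NICD 1, a fit that called 4954 genes in all, it was 1.37 with an adjusted p of 0.0331. With any 1 of the other 6 libraries left out it missed the threshold (adjusted p values of 0.0649 to 0.145).

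Control 3 was also the Control library in which α cell markers were highest. Irx1, a transcription factor of α cells, was at 19.3 CPM in Control 3, at 7.94 to 8.69 CPM in the other Control libraries and at 20.7 to 38.1 CPM in β-tetO-NICD libraries. The summed level of 6 α cell markers was 12079 to 43187 CPM in Control and 55548 to 70539 CPM in β-tetO-NICD islets. Most of that sum was the glucagon gene Gcg, at 11317 to 41122 and 53398 to 67055 CPM. Irx1 and Irx2 were among the markers that rose. With the α cell score as a covariate, chosen after the data were seen, the Bdnf log2 fold change was 0.44 (edgeR adjusted p = 0.999), with 36 genes called in that fit. With a β cell score it was -0.79 (adjusted p = 0.99997), and edgeR then called 0 of all tested genes, with 241 at an unadjusted p under 0.05. Within the libraries with a positive length trend, Bdnf was at 0.731 to 0.887 CPM in 3 Control libraries and at 3.61 CPM in 1 β-tetO-NICD library. Within those with a negative trend it was at 2.22 CPM in 1 Control library and at 2.27 to 3.49 CPM in 3 β-tetO-NICD libraries. The part of α cell content in the Bdnf result was not tested beyond these values.

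The tested genes whose log2 CPM followed Bdnf most closely over the 8 libraries were Calb1 (Pearson r 0.970), Gnas (0.969), Crhr2 (0.965), Drc1 (0.964) and Mlkl (0.962). Calb1 encodes the calcium buffer calbindin, Gnas a G protein subunit and Crhr2 a receptor for urocortins. These correlations run across both groups and share the same libraries, and are given as a description.

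Ntf3, the gene of neurotrophin-3, lies at chr6:126101412-126166910 on the minus strand. It had 19, 27, 26 and 26 counts in Control libraries and 33, 49, 40 and 32 counts in β-tetO-NICD libraries. These were 0.876, 1.14, 1.03 and 1.05 CPM against 1.57, 2.14, 1.33 and 1.61 CPM, with every β-tetO-NICD library above every Control library. The mean was 1.03 ± 0.110 and 1.66 ± 0.342 CPM (SD, n = 4), and the log2 fold change of 0.69 (SE 0.27, 95% interval 0.09 to 1.29) did not pass (edgeR adjusted p = 0.124). It also did not pass in any of 24 alternative fits, in which it lay between 0.28 and 0.87.

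Gdnf, the gene of the GFRα1 ligand, lies at chr15:7810846-7837575 on the plus strand and was close to the limit of detection. It had 9, 10, 5 and 5 counts in Control libraries and 13, 3, 4 and 1 counts in β-tetO-NICD libraries, where 3 counts correspond to 0.0996 to 0.151 CPM over the 8 libraries. The mean was 0.310 ± 0.126 and 0.233 ± 0.259 CPM, with overlapping groups. The difference of -0.0765 CPM gave p = 0.629 in an exact two-sided permutation test over 70 arrangements, the smallest p of which is 0.0286. Without β-tetO-NICD 1, the library with 13 counts, the difference was -0.205 CPM (exact permutation p = 0.0857), and with any 1 other library left out it was between -0.114 and -0.0157 CPM.

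Among the neurotrophin receptors, Ntrk3 was the one whose groups did not overlap. It encodes TrkC, the receptor of neurotrophin-3, and lies at chr7:78175959-78738012 on the minus strand with 20 annotated transcripts, some of which encode forms without a kinase that the counts per gene do not separate. Control libraries held 40, 45, 43 and 68 counts of it, and 33, 24, 36 and 22 counts were found after NICD induction, or 1.85, 1.90, 1.70 and 2.76 CPM against 1.57, 1.05, 1.20 and 1.11 CPM. The mean was 2.05 ± 0.480 and 1.23 ± 0.233 CPM (SD, n = 4), with a log2 fold change of -0.74 (SE 0.28, 95% interval -1.36 to -0.12) and an edgeR adjusted p of 0.117. Without β-tetO-NICD 1 it was -0.87 with an adjusted p of 0.0494, with the α cell score -0.53 (adjusted p = 0.999) and with the β cell score -0.17 (0.99997). The longest Ntrk3 transcript is 19703 bases, the longest among the 9 genes, and with an offset for transcript length the log2 fold change was 0.15 (adjusted p = 0.776). On the positive side of the length trend Ntrk3 was at 1.85 to 2.76 CPM in 3 Control libraries and 1.57 CPM in 1 β-tetO-NICD library, and on the negative side at 1.70 CPM in 1 Control library and 1.05 to 1.20 CPM in 3 β-tetO-NICD libraries.

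Ntrk2, which encodes the BDNF receptor TrkB, lies at chr13:58806569-59133970 on the plus strand. It was at 61.1, 50.4, 62.6 and 99.8 CPM in Control libraries and at 84.5, 103.3, 80.8 and 57.4 CPM in β-tetO-NICD libraries. The ranges overlapped, with Control 4 near the top and β-tetO-NICD 5 near the bottom of all 8. The mean was 68.4 ± 21.6 and 81.5 ± 18.9 CPM, with a log2 fold change of 0.25 (SE 0.24, 95% interval -0.29 to 0.79, edgeR adjusted p = 0.480). It was 0.50 without Control 4, 0.12 without β-tetO-NICD 2 and 0.80 with the length offset (adjusted p = 0.0848), and passed in none of these fits. The 10 annotated transcripts include truncated forms of TrkB that lack the kinase and are not separated here.

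Ngfr, the gene of p75, lies at chr11:95568818-95587735 on the minus strand. It was at 26.7, 17.4, 23.3 and 42.0 CPM in Control libraries and at 32.8, 20.4, 39.1 and 11.2 CPM in β-tetO-NICD libraries. Ranges overlapped over most of their width, and the widest spread was within the β-tetO-NICD group. The mean was 27.3 ± 10.5 and 25.9 ± 12.5 CPM, with a log2 fold change of -0.08 (SE 0.38, 95% interval -0.93 to 0.77, edgeR adjusted p = 0.899). The sign was positive without Control 4, β-tetO-NICD 2 or β-tetO-NICD 5 (0.21, 0.02 and 0.17).

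Among Ret, Gfra1 and Gfra2, Ret had the log2 fold change of greatest size. Ret encodes the kinase that GDNF family ligands share and lies at chr6:118151745-118197718 on the minus strand. Control libraries held 3640, 3730, 2918 and 3784 counts of it and β-tetO-NICD libraries 2641, 1438, 2168 and 894. In CPM it was at 167.9, 157.5, 115.5 and 153.6 against 125.5, 62.8, 72.0 and 45.0. The groups overlapped only in that β-tetO-NICD 1 was above Control 3. The mean was 148.6 ± 22.9 and 76.3 ± 34.6 CPM (SD, n = 4), with a log2 fold change of -0.96 (SE 0.29, 95% interval -1.60 to -0.32) that missed the threshold (unadjusted p = 0.00761, edgeR adjusted p = 0.0703). Without β-tetO-NICD 1 the log2 fold change was -1.31 with an adjusted p of 0.00406. With the α cell score it was -0.51 (adjusted p = 0.999), with the β cell score -0.90 (0.99997), and for the 5 libraries low in Eif2s3y -0.71 (0.456).

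The same pair of libraries, Control 3 and β-tetO-NICD 1, had a length trend of the opposite sign to the rest of their groups. Where the trend was positive, Ret was at 153.6 to 167.9 CPM in 3 Control libraries and at 125.5 CPM in 1 β-tetO-NICD library. Where it was negative, Ret was at 115.5 CPM in 1 Control library and at 45.0 to 72.0 CPM in 3 β-tetO-NICD libraries. With the sign of the trend as a covariate, the log2 fold change was -0.65 for Ret (adjusted p = 0.0987), 1.28 for Bdnf (0.0965) and -0.54 for Ntrk3 (0.344). Without both libraries it was -1.41 for Ret (edgeR adjusted p = 0.00184), 1.89 for Bdnf (0.00398) and -0.95 for Ntrk3 (0.0439). That fit called 6008 of 15197 tested genes. Its Control libraries all had a positive trend and its β-tetO-NICD libraries all a negative one, so it cannot tell group from trend. Both of these fits were chosen after the data were seen.

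**Figure D2:**
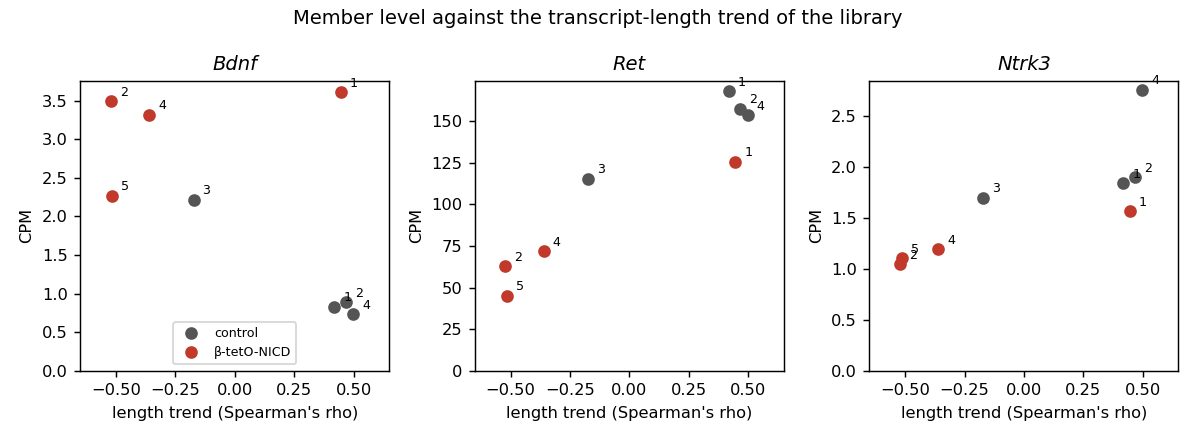
Level of Bdnf, Ret and Ntrk3 in CPM against each library's length trend, the Spearman correlation of its deviation from each gene's mean with transcript length, with Control and β-tetO-NICD libraries in separate colours. On each side of 0 the β-tetO-NICD libraries lay above the Control libraries for Bdnf and below them for Ret and Ntrk3. On each side, 1 of the groups had 1 library. On the negative side Bdnf was at 2.22 CPM in Control 3 and 2.27 CPM in β-tetO-NICD 5. That order was reversed on CPM from total counts (2.16 and 2.02).

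Gfra1 encodes the GDNF coreceptor and lies at chr19:58235604-58455909 on the minus strand. It was at 23.6, 17.0, 24.29 and 22.3 CPM in Control libraries and at 33.7, 27.1, 23.9 and 24.33 CPM in β-tetO-NICD libraries, so that β-tetO-NICD 4 lay within the Control range and β-tetO-NICD 5 at its upper edge. The mean was 21.8 ± 3.29 and 27.3 ± 4.54 CPM, with a log2 fold change of 0.32 (SE 0.17, 95% interval -0.06 to 0.70, edgeR adjusted p = 0.214). It was 0.21 without β-tetO-NICD 1 and 0.09 with the α cell score, and did not pass in either. Gfra2, which encodes the neurturin coreceptor, lies at chr14:70890120-70979838 on the plus strand and was at 6.04, 10.01, 5.18 and 14.3 CPM against 5.99, 5.81, 6.71 and 7.46 CPM. Its 4 β-tetO-NICD libraries all lay within the Control range. The mean was 8.89 ± 4.19 and 6.49 ± 0.752 CPM, with a log2 fold change of -0.45 (SE 0.31, 95% interval -1.15 to 0.24, edgeR adjusted p = 0.319). With 1 library left out it lay between -0.64 (without Control 3) and -0.12 (without Control 4).

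**Figure D3:**
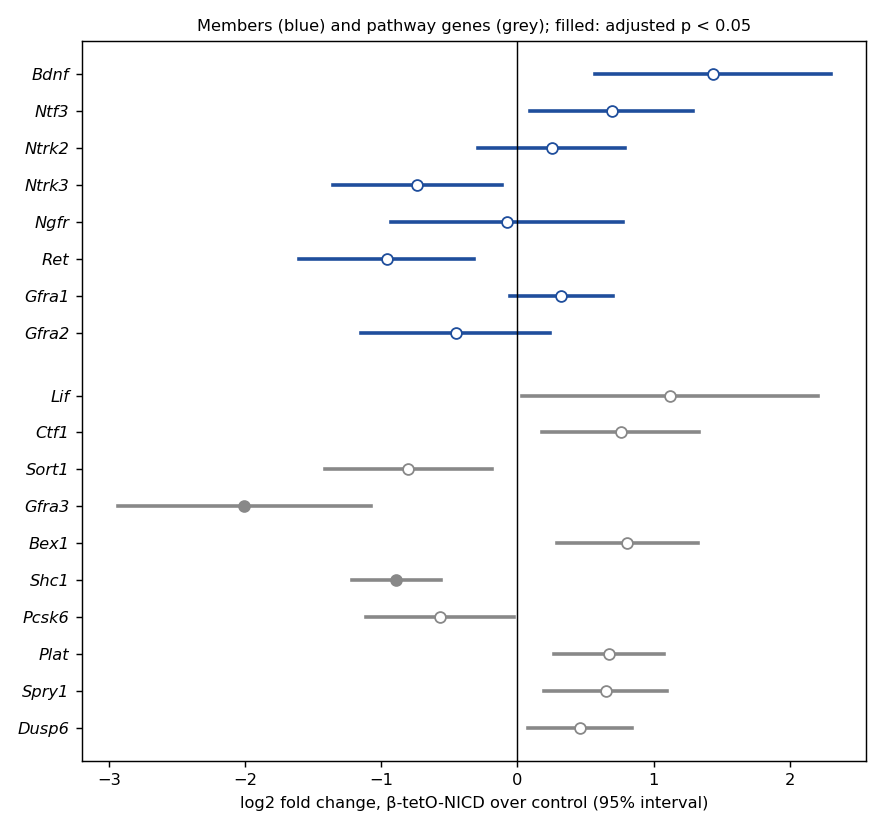
Log2 fold change of β-tetO-NICD against Control islets with its 95% interval from edgeR, for the 8 tested neurotrophic genes (blue) and 10 genes of the wider pathway (grey), with filled points for an adjusted p under 0.05. Intervals of Bdnf, Ntf3, Ntrk3 and Ret exclude 0 without passing after adjustment, and Gfra3 and Shc1 are filled at -2.01 and -0.89.

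Levels of different genes were compared per length, as counts per kilobase of the longest transcript scaled to the same total in each library. On this scale Ret was highest in Control islets at 47.1 ± 9.49, followed by Ngfr at 13.8 ± 6.01 and Ntrk2 at 13.6 ± 5.03, then Gfra1 at 8.03 ± 0.947 and Gfra2 at 4.52 ± 2.43. The ligands were lower, with Ntf3 at 1.19 ± 0.198, Bdnf at 0.456 ± 0.236 and Gdnf at 0.146 ± 0.0620, and Ntrk3 was at 0.181 ± 0.0545. Neighbours in this order whose ranges overlapped were Ngfr and Ntrk2, Gfra1 and Gfra2, and Ntrk3 and Gdnf. In β-tetO-NICD islets the order per length was Ret at 22.9 ± 11.8, Ntrk2 at 15.0 ± 4.38, Ngfr at 12.7 ± 7.72, Gfra1 at 9.39 ± 2.19, Gfra2 at 2.97 ± 0.520, Ntf3 at 1.76 ± 0.305, Bdnf at 1.21 ± 0.360, Gdnf at 0.105 ± 0.118 and Ntrk3 at 0.100 ± 0.0285. There the ranges of Ret and Ntrk2, Ntrk2 and Ngfr, Ngfr and Gfra1, Ntf3 and Bdnf, and Gdnf and Ntrk3 overlapped. The order depends on which transcript gives the length. Per kilobase of the median transcript, Ngfr was at 7.53 and Gfra1 at 10.6 in Control islets, and Ngfr at 7.12 and Gfra1 at 12.7 in β-tetO-NICD islets, while Ntrk2 in Control islets was at 22.5 and Ret at 28.3. For Ntrk3, per kilobase of the median transcript it was at 1.97 in Control and 1.13 in β-tetO-NICD islets, where the means of Ntf3 were 0.693 and 1.06. On that scale Ntrk2, at 25.7, was above Ret, at 14.2, in β-tetO-NICD islets.

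The wider pathway was covered by 5 lists with 66 symbols, of which 65 were in the table and 56 were tested. edgeR called 2 of the 56, both lower in β-tetO-NICD islets, where 6.76% of all tested genes were called. Of the 56, 17 had an unadjusted p under 0.05, 11 higher and 6 lower, against 31.6% of all tested genes. DESeq2 called 11 of these genes (18.2% of all) and limma-voom 2 (7.18% of all). The median log2 fold change of the 56 was 0.0714. The groups did not overlap for 9 of them, against 16.1% of all tested genes.

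Gfra3 fell. It encodes the coreceptor of artemin, a further GDNF family ligand that signals through RET, and was at 21.7, 32.6, 77.0 and 43.0 CPM in Control libraries and at 5.18, 13.8, 13.7 and 10.5 CPM in β-tetO-NICD libraries. Every β-tetO-NICD library was below every Control library. The mean was 43.6 ± 23.9 and 10.8 ± 4.04 CPM, with a log2 fold change of -2.01 (SE 0.42, 95% interval -2.94 to -1.08, edgeR adjusted p = 0.0223). When each library was left out in turn it passed in 4 of 8 fits, with adjusted p values of 0.0104 to 0.0637, and missed the threshold without Control 4 or β-tetO-NICD 2, 4 or 5. It also missed it when the 5 libraries with at most 1 Eif2s3y count were fitted alone (-2.18, adjusted p = 0.192), with the α cell score (-2.82, adjusted p = 0.200) and with the β cell score (-3.45, adjusted p = 0.99997). On the positive side of the length trend Gfra3 was at 21.7 to 43.0 CPM in 3 Control libraries and 5.18 CPM in 1 β-tetO-NICD library, and on the negative side at 77.0 CPM in 1 Control library and 10.5 to 13.8 CPM in 3 β-tetO-NICD libraries. With the sign of the trend as a covariate its log2 fold change was -2.62 (edgeR adjusted p = 0.00039). Without Control 3 and β-tetO-NICD 1 it was -1.36 (edgeR adjusted p = 0.00553), in a fit where group and trend cannot be told apart.

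The makeup of the 4 GFRα coreceptors was described by their shares. Of the summed level per length of Gfra1 to Gfra4, Gfra3 made up 71.2% ± 9.65 in Control and 38.2% ± 11.5 in β-tetO-NICD islets (SD, n = 4). Gfra1 made up 28.4%, 15.8%, 11.4% and 15.5% in Control libraries and 60.7%, 38.4%, 35.0% and 38.7% in β-tetO-NICD libraries, so the groups did not overlap. Gfra2 made up 9.68% ± 4.55 and 13.6% ± 2.05, and Gfra4, the persephin coreceptor, 1.38% ± 0.236 and 5.07% ± 1.36. For Gfra4 itself the log2 fold change was 0.81 and did not pass (edgeR adjusted p = 0.178). Per kilobase of the median transcript, Gfra3 made up 52.0% ± 12.4 in Control and 21.2% ± 7.64 in β-tetO-NICD islets and Gfra1 30.0% ± 9.65 and 55.6% ± 9.74, and in Control 1 Gfra1 (44.2%) was above Gfra3 (39.5%). These shares were computed after the values were seen, are tied to each other because they add up to the whole, and were not tested.

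**Figure D4:**
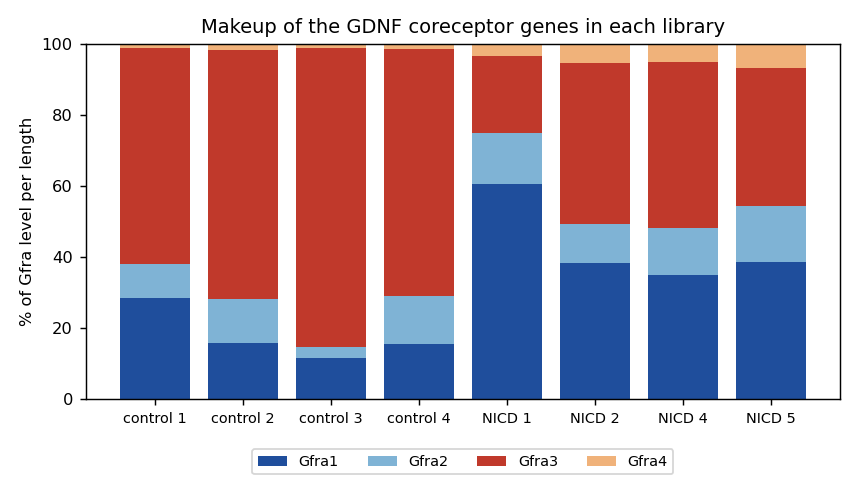
Makeup of the summed per-length level of Gfra1, Gfra2, Gfra3 and Gfra4 in each library, in percent, as stacked bars from 0. Gfra3 filled 60.8% to 84.1% of the Control bars and 21.6% to 46.8% of the β-tetO-NICD bars.

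Shc1 was the other gene that fell. It encodes an adaptor that docks on activated Trk receptors and RET, as well as on many other tyrosine kinases. It was at 161.2 to 199.7 CPM in Control and at 82.2 to 108.1 CPM in β-tetO-NICD libraries, which did not overlap. The mean was 174.2 ± 17.4 and 94.0 ± 11.2 CPM, with a log2 fold change of -0.89 (SE 0.15, edgeR adjusted p = 0.00776), and it passed in 8 of 8 fits with a library left out. It missed the threshold when the same 5 libraries, low in Eif2s3y, were fitted alone (-0.78, adjusted p = 0.148), with the α cell score (-0.77, adjusted p = 0.694), with the β cell score (-0.57, adjusted p = 0.99997) and with the replicate block (-0.76, adjusted p = 0.298). None of the other 16 tested partners and adaptors passed. Of those, Bex1, whose product binds p75, was at 52.5 CPM in Control and 92.0 CPM in β-tetO-NICD islets (log2 fold change 0.81, adjusted p = 0.0644).

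Among the other lists, edgeR called 0 of 9 tested ligands, with 2 at an unadjusted p under 0.05 and a median log2 fold change of 0.33. Ctf1, a cytokine that supports motor neurons, was at 2.14 CPM in Control and 3.63 CPM in β-tetO-NICD islets (log2 fold change 0.76, adjusted p = 0.0948), and for Lif, a related cytokine, the log2 fold change was 1.12 (adjusted p = 0.150). Of 12 further receptors and coreceptors, Gfra3 was the 1 called, with a median of -0.34 over the list. Sort1 encodes sortilin, which pairs with p75 to bind proneurotrophins, and was at 213.5 and 122.4 CPM (log2 fold change -0.80, adjusted p = 0.0957). Of 5 tested genes of proneurotrophin processing, 0 were called by edgeR and 2 had an unadjusted p under 0.05. Plat encodes tissue plasminogen activator and was at 10.8 and 17.2 CPM (log2 fold change 0.67, adjusted p = 0.0542), and Pcsk6, a proprotein convertase, was at 46.7 and 31.4 CPM (-0.57, adjusted p = 0.145). Of 13 tested ERK feedback and ETS genes, which receptor tyrosine kinases induce, 0 were called by edgeR and 3 had an unadjusted p under 0.05, with a median of 0.19. Spry1, which encodes an inhibitor of receptor tyrosine kinases, was at 10.1 and 15.8 CPM (log2 fold change 0.65, adjusted p = 0.0772), and Dusp6, an ERK phosphatase, at 16.0 and 22.1 CPM (0.46, adjusted p = 0.114).

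Receptors of this family are also carried by cells that surround the islet, so the markers of those cells are given beside them. Of 9 tested Schwann and glial markers, 0 were called by edgeR, and their summed level was 108 to 141 CPM in Control and 90.3 to 115 CPM in β-tetO-NICD libraries. Most of that sum was the myelin gene Mbp, at 78.4 ± 11.3 and 65.9 ± 6.99 CPM. Cdh19, a cadherin of Schwann cells, was at 6.09 to 10.2 CPM in Control and 1.71 to 5.70 CPM in β-tetO-NICD libraries, which did not overlap, with a log2 fold change of -1.15 that did not pass (edgeR adjusted p = 0.0727). Of 10 tested markers of peripheral neurons, 1 fell: Th, the enzyme that makes the precursor of catecholamines, was at 41.9 ± 1.01 CPM in Control and 15.0 ± 2.74 CPM in β-tetO-NICD islets (log2 fold change -1.48, edgeR adjusted p = 0.000681). The summed neuron list was at 244 to 362 and 207 to 240 CPM, and without Th at 201 to 321 and 193 to 226 CPM, where the groups overlapped. No defining marker of glia or neurons was at 0 in all libraries, but Sox2 and Dbh had too few counts to be tested. Pericyte and fibroblast markers (0 of 10 called, 209.5 to 612 and 335 to 420 CPM) and endothelial markers (0 of 7 called, 451 to 656 and 575 to 691 CPM) overlapped between groups. Macrophage and leukocyte markers were at 142 to 188 and 211 to 303 CPM, with 1 of 7 higher. This was C1qa (77.6 ± 15.7 and 150.4 ± 34.3 CPM, edgeR adjusted p = 0.0273), which made most of that difference. Of the 7, 6 had a positive log2 fold change, among them C1qb (0.75, edgeR adjusted p = 0.113). Adgre1 had the 1 negative value, at 6.77 and 5.19 CPM, and Cd68 was at 3.55 CPM in both groups. The δ cell markers were at 2439 to 6588 and 5087 to 14146 CPM, with 1 of 4 higher. Duct markers were at 229 to 323 and 249 to 475 CPM with 0 of 7 called, acinar markers at 42231 to 87524 and 34158 to 126977 CPM with 0 of 12 called, and β cell markers at 155257 to 196168 and 72005 to 171842 CPM with 2 of 9 lower. Of the 8 libraries, β-tetO-NICD 1 had the highest acinar sum, 126977 CPM, and the lowest β cell sum, 72005 CPM. The part of these cell types in the values of Ret, Ntrk3, Gfra3 and Bdnf was not tested beyond the covariate fits given.

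**Figure D5:**
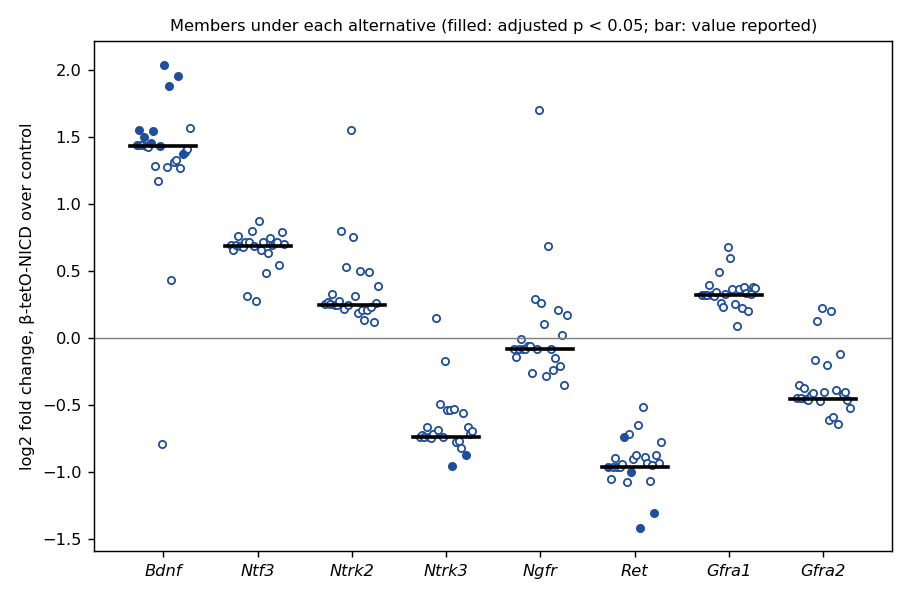
Log2 fold change of each tested neurotrophic gene under 24 alternative fits, with a bar at the reported value and filled points for an adjusted p under 0.05. Bdnf was filled in 10 of the 24, Ret in 5 and Ntrk3 in 2, and the other genes in 0.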

How the data were processed

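RNA of islets from 4 Control and 4 β-tetO-NICD mice was analysed. The authors made stranded poly(A) libraries, used Kallisto for pseudoalignment to GRCm38 and deposited raw whole-number counts per gene symbol, not normalized. The Kallisto version, the annotation release, the use of strand and the rounding are not given in the sources used here. A deposited table of the authors' own limma comparison (log2 fold changes, mean expression, t, p values, log odds) was not used.

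Columns were matched to mice by name. β-tetO-NICD columns numbered 4 and 5 were used as group members without a number, since the mice are labelled 1 to 4. Pairs of libraries within a group differed by a chi-square of at least 31.5 per gene, so none were merged.

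The 9 genes and all gene lists were chosen with earlier results of these data known. Genes that reached 10 counts in 4 or more of 8 libraries were tested in R 4.3.3 with edgeR 4.0.16 (TMM, glmQLFit and glmQLFTest, no covariate), and p values were adjusted by Benjamini-Hochberg over all 15082 genes with a threshold of 0.05. Standard errors are the log2 fold change over the square root of F, and CPM is the count scaled by the TMM-adjusted library size. Gdnf, under the filter, was compared by an exact permutation test. Named genes were the 9, the pathway genes that passed, 2 to 4 examples per list by smallest p, and the 5 genes most correlated with the tested gene of smallest p. Gfra4, named for the coreceptor shares, and the cell type markers did not follow this rule. Pathway lists covered other ligands, other receptors, partners and adaptors, proneurotrophin processing, and ERK feedback and ETS genes. Marker lists covered glia, neurons, pericytes and fibroblasts, endothelium, leukocytes, duct, acinar, α, β and δ cells; 1 marker is not reported by name here. Lengths and coordinates were from GENCODE M21, which held 97.2% of the tested symbols.

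Alternatives were DESeq2 1.42.0, limma-voom (limma 3.58.1), other normalizations and filters, a length offset, covariates, subsets of libraries, a replicate block, and each library left out in turn. The plain edgeR, limma-voom and DESeq2 comparisons were first tested on simulated data, and the other alternatives were not. With 21701223 to 26413146 counts per library, 3 counts are at most 0.151 CPM. This floor covers counting error only.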

Additional observations from a re-analysis of the deposited data

Results flagged for a closer look

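In groups of 4 libraries, 1 library stood apart from the others of its group (by the gap to its nearest neighbour over the whole range, against Dixon's critical value) in 4 of 58 groups examined, where chance gives about 1 in 20, or 2.9. The Bdnf level of Control 3 was 2.22 CPM against 0.731 to 0.887 CPM in the other Control libraries, a gap of 0.895 of the range. Gdnf in β-tetO-NICD 1 was at 0.618 CPM against 0.0504 to 0.133 CPM, a gap of 0.855, on 13 counts against 1 to 4. Summed duct markers were at 229 CPM in Control 4 against 308 to 323 CPM, a gap of 0.847. Summed acinar markers were at 87524 CPM in Control 1 against 42231 to 47298 CPM, a gap of 0.888.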

How the results depend on the processing

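Bdnf, Ret and Ntrk3 crossed the threshold in some fits, and Ntf3, Ntrk2 and Gfra1 neither crossed it nor changed direction in any of 24. For Bdnf the log2 fold change passed with DESeq2 (1.44), limma-voom (1.56), upper-quartile scaling (1.504), at least 10 counts in every library (1.46), a length offset (1.54), an acinar score (1.43), the replicate block (2.04) and without Control 3 and β-tetO-NICD 1 (1.89), and it was -0.79 with a β cell score. For Ret it passed with DESeq2 (-0.96), the length offset (-0.74), the acinar score (-0.999) and without both libraries (-1.41), and did not pass with the α cell score (-0.51), the β cell score (-0.90) or in the 5 libraries without Eif2s3y (-0.71). For Ntrk3 it was 0.15 with the length offset and passed at -0.95 without both libraries. Ngfr was reversed in the 5 libraries without Eif2s3y (0.30), with the β cell score (1.70), the replicate block (0.26), the length trend (0.11) and the α cell score (0.69), and Gfra2 in the first (0.13), with the β cell score (0.23) and with the α cell score (0.20). Leaving out each library in turn gave 1.27 to 1.96 for Bdnf, -1.31 to -0.77 for Ret, -0.87 to -0.56 for Ntrk3 and -0.35 to 0.21 for Ngfr, which was positive without Control 4, β-tetO-NICD 2 or β-tetO-NICD 5. The cause of these changes was not tested, and without both libraries group and length trend cannot be told apart.

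Of the 8 genes, 2 were called with DESeq2, 1 with limma-voom, 1 with upper-quartile scaling, 1 with the stricter filter, 2 with the length offset, 2 with the acinar score, 1 with the replicate block, 3 without both libraries and 0 to 3 with a library left out (1 without Control 3, 3 without β-tetO-NICD 1). Of the 56 pathway genes, 11 were called with DESeq2, 6 with the length offset, 9 with the acinar score, 19 without both libraries, 0 in the 5 libraries (11 at an unadjusted p under 0.05), 0 with the β cell score (0 unadjusted), 0 with the α cell score (4 unadjusted) and 1 to 13 with a library left out (13 without β-tetO-NICD 1, and 1 without Control 4 or β-tetO-NICD 2, 4 or 5). Of all 15082 tested genes, 1083 were called with limma-voom, 1158 with upper-quartile scaling and 1555 with the length offset. Of the same genes, 2623 were called with the acinar score and 608 with the length trend. The β cell score gave 0 of them (241 unadjusted) and the α cell score 36 (905 unadjusted). DESeq2 called 2739 of 15066. The stricter filter gave 1029 of 13620, the block 610 of 15136 and the 5 libraries 116 of 15345 (1968 unadjusted). There were 6008 of 15197 called without both libraries, 4954 of 14902 without β-tetO-NICD 1 and 866 of 14971 without Control 3. With any 1 other library left out, 319 to 603 were called, of 14869 to 14977 tested. The share of calls that were higher was 62.0% as reported, 46.7% with the acinar score, 49.6% without both libraries and 73.3% in the 5 libraries. Gfra3 and Shc1 kept their direction in 24 of 24 fits. Neither passed with the α or β cell score or in the 5 libraries, and Shc1 did not pass with the replicate block (edgeR adjusted p = 0.298).

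The block used numbers 1 and 2, which share a number alone. Number 4 also stands in both groups of columns, but the mouse behind β-tetO-NICD column 4 is not settled, so it was left out. Per-length levels moved by more than 1 SD in 13 of 18 values with the median transcript. Ngfr and Gdnf, with 1 annotated transcript each, also moved in Control islets, because each library is rescaled to the same total. At the depth of Bdnf, Ntf3, Ntrk3 and Gdnf, of 1 to 100 counts, counting error is part of the spread. The fits with the length trend sign, without both libraries and with the α cell score, the neuron sum without Th, the coreceptor shares per median transcript and the other scales for group overlap were chosen after seeing the data.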
